A study of Mus musculus with 2 samples.

Results

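The genes described here are 37 members of the Notch signalling pathway, taken by gene symbol from the 43346 annotated mouse genes in the tables: 4 receptors, 5 ligands, 3 Fringe glycosyltransferases, 11 genes of ligand and receptor processing, 4 genes of the nuclear complex and 10 target genes. All 37 had a row in both gene tables. They were measured by total RNA-seq in forebrain tissue of healthy mouse embryos of strain B6NCrl at embryonic day 10.5. Both libraries belonged to the same group. The library of replicate 1 was made from 69 pooled embryos of mixed sex and that of replicate 2 from 51, with 10 ng of RNA as input to each. Both pools carried the same donor label, so the spread between them covers pooling and library preparation and may not cover separate litters.

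Notch receptors are membrane proteins that a ligand on a neighbouring cell activates; ADAM proteases and then the gamma-secretase complex cut the receptor, and the released intracellular domain joins RBPJ and a Mastermind protein on DNA. In the embryonic brain this signal maintains neural progenitors through Hes genes, which repress proneural factors, while cells that become neurons express ligands. The same pathway also operates in blood vessels and in the segmenting mesoderm, so tissue that holds several cell types can contribute to each gene. In whole tissue, fewer cells of a type and less RNA per cell cannot be told apart.

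In replicates 1 and 2, annotated genes summed to 41537304 and 38012457 expected counts, and the 37 genes took 0.199% and 0.194% of these. Between the pools the common biological coefficient of variation over 16637 genes was 6.59%. Of 10 forebrain markers 9 were detected, with summed levels of 432 and 433 TPM (a share of all transcripts, adjusted for transcript length) in replicates 1 and 2. None of 12 markers of hindbrain and spinal cord was detected, and 5 of them had no count. All 6 neuroepithelial, 8 neuronal, 13 endothelial, 7 head mesenchyme, 6 erythroid and 7 macrophage markers were detected, so the tissue was not neural cells alone. Of 5 surface epithelium markers 4 were detected, with sums of 116 and 109 TPM in replicates 1 and 2. A gene is called detected here at 1 TPM or more in both libraries. Levels are in TPM, and a value with ± is a mean with its SD over both libraries (n = 2). No group comparison exists in the design, so no p-value is given. Neighbours in an order are called apart where their ranges do not overlap and the gap between their means exceeds the sum of their SDs.

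Of the 37 Notch genes 34 were detected, including every receptor, ligand, Fringe gene, processing gene and nuclear factor. Among all annotated genes 32.4% were detected, and among protein-coding genes 57.3%. The 3 exceptions were target genes: Dtx1, at 1.31 TPM in replicate 1 and 0.88 in replicate 2, Hes3 and Hes7. The median over all 37 genes was 17.1 ± 0.530 TPM, against 20.2 ± 0.198 TPM for detected protein-coding genes. The first median includes the 3 undetected genes, so the filters differ. As log2(TPM + 0.1), the median was 4.11 for all members and 4.26 for detected members, against 4.34 for detected protein-coding genes. In 16 cases the level lay above that of the median detected coding gene, and only Hes5 and Hes6 lay at percentile 90 or above. Fringe genes had the highest group median (35.0 ± 2.29 TPM) and the nuclear complex the lowest (5.62 ± 0.141 TPM). The medians of targets, receptors and processing genes lay between, at 19.2 ± 1.05, 18.3 ± 0.315 and 18.3 ± 0.460 TPM, and that of ligands was 11.5 ± 0.0919 TPM. The place of the targets depends on how the median is taken: on the scale of log2(TPM + 0.1) it was 3.78, below 4.20 for receptors, and over detected targets only it was 5.21, above 5.13 for Fringe genes.

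**Figure D1:**
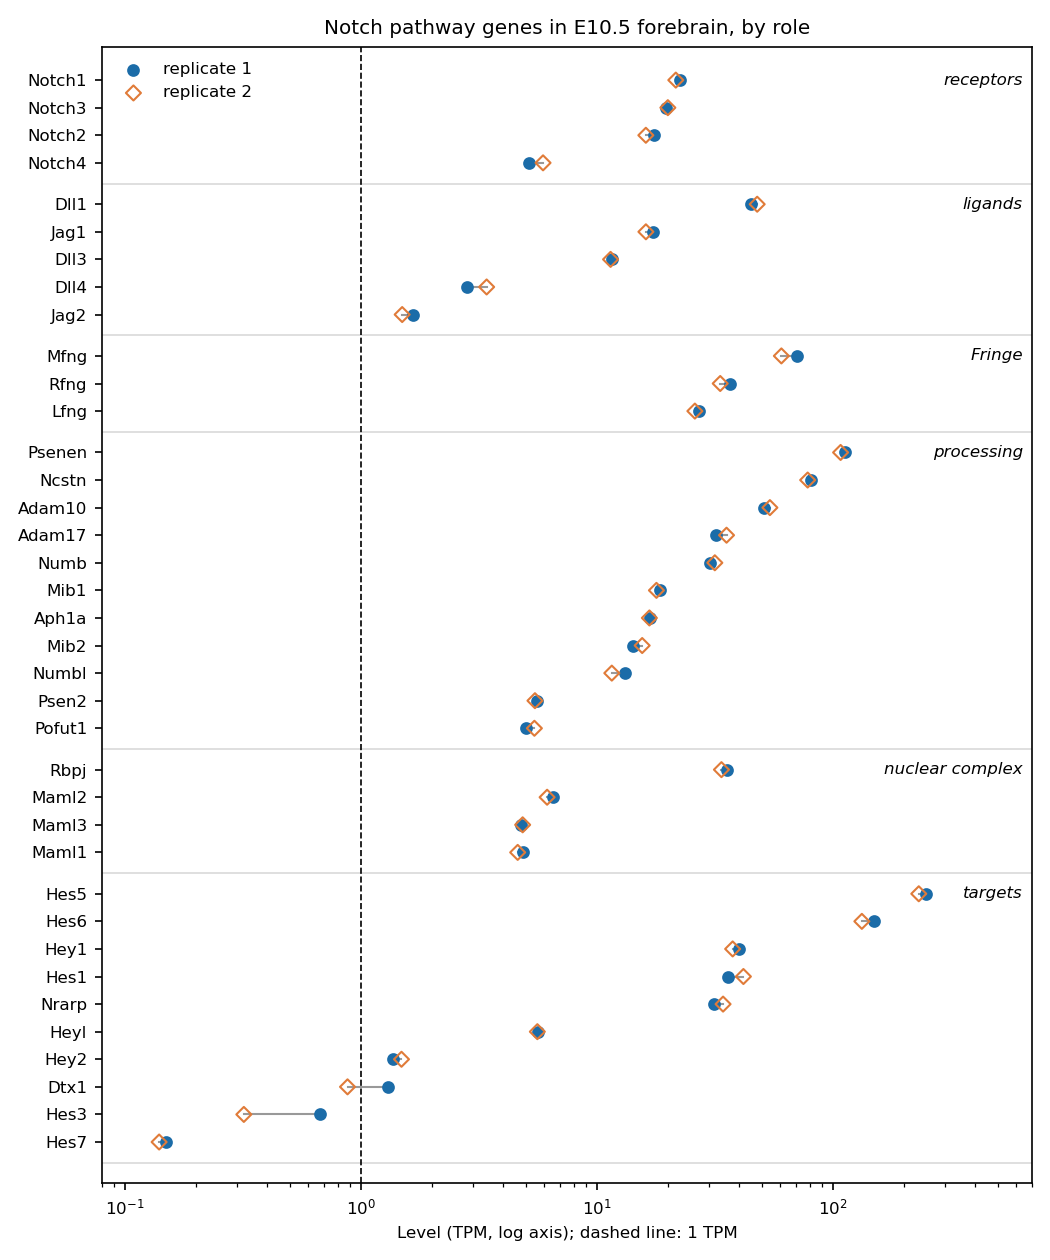
Level of each Notch pathway gene in TPM (log axis) by role, with replicate 1 as filled circles and replicate 2 as open diamonds; the dashed line marks 1 TPM. Hes5 (249.3 and 232 TPM) stood highest and Hes7 (0.15 and 0.14 TPM) lowest, and most pairs of points nearly touch.

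Notch1, Notch3 and Notch2 were present at similar levels and Notch4 at a lower one. Notch1, a receptor of neural progenitors (chr2:26457903-26516663, minus strand, GRCm38), had 22.7 TPM in replicate 1 and 21.7 in replicate 2. Notch3, a receptor of progenitors and of vascular mural cells, had 19.6 and 20.0 TPM. Notch2 had 17.5 and 16.2 TPM. The 3 receptors were apart from each other, but by little: Notch1 exceeded Notch3 by 1.12-fold (log2 0.16 ± 0.07) and Notch2 by 1.32-fold (0.40 ± 0.03). Of the summed receptor level, 64.9 and 63.8 TPM in replicates 1 and 2, Notch1 made up 34.9% and 33.9%, and no receptor made up a majority. Notch4, a receptor of endothelial cells (chr17:34564268-34588503, plus strand, GRCm38), had 5.17 and 5.93 TPM, and Notch3 exceeded it by 3.53-fold (1.82 ± 0.12). For Notch1, the deposited posterior mean TPM was higher than the deposited TPM, at 25.7 and 24.7 in replicates 1 and 2, and the interval around it left out the TPM in both libraries. The coding transcript Notch1-201 held 90.8% and 95.05% of its TPM in replicates 1 and 2, but 78.3% and 81.1% of its posterior mean. Separately, the counts of Notch1 were fractional, which shows that reads were shared with other rows. The part of this sharing in the gap was not tested.

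Dll1 (chr17:15367354-15376872, minus strand, GRCm38) was the leading ligand. It activates Notch from the surface of cells that enter neurogenesis, and its level was 45.0 TPM in replicate 1 and 47.9 in replicate 2, or 57.4% and 59.5% of the ligand sum. Jag1 followed at 17.3 and 16.2 TPM. Dll3, a ligand-like protein that acts within the cell and does not activate Notch on a neighbour, had 11.6 and 11.5 TPM. Dll4, an endothelial ligand, had 2.81 and 3.42 TPM, and Jag2 had 1.67 and 1.5 TPM. All 5 were apart in this order. Dll1 exceeded Jag1 by 2.76-fold (log2 1.47 ± 0.13), Dll3 by 4.01-fold (2.00 ± 0.07) and Dll4 by 14.5-fold (3.86 ± 0.13), and Jag1 exceeded Jag2 by 10.0-fold (3.32 ± 0.03).

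Several of these genes are also known from blood vessels. Of them, Notch4, Dll4, Heyl and Hey2 were under 6 TPM in both libraries, while Notch3, Jag1 and Hey1 were not. Endothelial markers were present in the same libraries, with 13 of 13 detected and summed levels of 237 and 247 TPM in replicates 1 and 2. Of 9 mural cell markers 5 were detected, with sums of 66.9 and 65.9 TPM: Pdgfrb had 20.9 and 22.1 TPM, while Rgs5, Kcnj8, Abcc9 and Cspg4 were under 1 TPM. The part of these cells in the levels of Notch3, Notch4, Jag1, Dll4, Hey1, Heyl and Hey2 was not tested.

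All 3 Fringe genes, whose enzymes extend the O-fucose on Notch and so change how it responds to each ligand class, were detected, each above at least 4 of the 5 ligands. Mfng had 70.8 TPM in replicate 1 and 60.7 in replicate 2, Rfng 36.7 and 33.4, and Lfng 27.3 and 26.1. The order was apart at each step, with Mfng 2.45-fold above Lfng (log2 1.29 ± 0.11). The lower step depends on which transcripts are counted: on gene TPM the log2 ratio of Lfng to Rfng was -0.39 ± 0.05, whereas on transcripts annotated as protein-coding it was 0.13, since Rfng-202, a processed transcript, carried 29.2% and 31.9% of Rfng TPM. Pofut1, the enzyme that adds the O-fucose, stood at only 5.01 and 5.45 TPM.

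Among the genes that process receptor and ligand, the subunits of gamma-secretase differed widely in level. Psenen, which encodes the smallest subunit, had 113 TPM in replicate 1 and 108 in replicate 2, and Ncstn, the nicastrin gene, had 80.8 and 78.4 TPM. Aph1a, the scaffold subunit, had 16.8 and 16.7 TPM, and Psen2, a presenilin and thus a catalytic subunit, had 5.59 and 5.48 TPM. In TPM, these subunits of the same complex therefore differed by large and repeatable factors. Ncstn exceeded Psen2 by 14.1-fold (log2 3.82 ± 0.01). The log2 ratio of Aph1a to Psenen was -2.71 ± 0.04, with Psenen 6.56-fold higher. The size of the latter depends on the division by length, since Psenen is much shorter (effective length 549 bases, against 2540 for Aph1a). On CPM it was -0.47, whereas Ncstn over Psen2 was 4.46. Exons of Psenen, Ncstn and Aph1a overlap those of U2af1l4, Copa and Car14 on the other strand. Library strandedness was not stated in any label or header read here, so reads of such partners may be included. The same limit holds for other members. Exons of 16 members overlap those of another gene on either strand, and 9 members had fractional counts. Hes5 (overlapped by Gm20421) and Dll1 (by A930024N18Rik) had both.

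The ectodomain proteases were both well detected, Adam10 at 51.3 and 54.3 TPM in replicates 1 and 2 and Adam17 at 32.1 and 35.5 TPM, so Adam10 was 1.56-fold higher (log2 0.64 ± 0.05). Mib1, the ubiquitin ligase that drives endocytosis of bound ligand, had 18.6 and 17.9 TPM, and its relative Mib2 had 14.3 and 15.6 TPM. The log2 ratio of Mib1 to Mib2 was 0.29 ± 0.13 on gene TPM, 1.08 on transcripts annotated as protein-coding and 1.36 on CPM, which is not divided by length. Numb, an adaptor that antagonises Notch and is inherited unequally in some neural divisions, had 30.3 and 31.7 TPM, against 13.2 and 11.6 TPM for its relative Numbl; the log2 ratio of Numbl to Numb was -1.32 ± 0.18. In the order of the processing genes, Adam17 and Numb were not apart, nor were Psen2 and Pofut1.

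In the nuclear complex, Rbpj greatly outweighed the Mastermind genes. Rbpj, the DNA-binding factor, had 35.6 TPM in replicate 1 and 33.8 in replicate 2, or 68.7% and 68.3% of the group sum. The coactivators Maml2, Maml3 and Maml1 had 6.56 and 6.17, 4.78 and 4.86, and 4.87 and 4.63 TPM. Rbpj exceeded Maml1 by 7.17-fold (log2 2.84), and Maml1 and Maml3 were not apart (-0.02 ± 0.07).

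The target genes spanned the widest range of any group. Hes5, the repressor that maintains neural progenitors, was the highest of all 37 genes (chr4:154960923-154962371, plus strand, GRCm38) at 249.3 TPM in replicate 1 and 232 in replicate 2, at percentile 94.9 of detected coding genes. Hes6, a relative known to oppose Hes1 and to favour neuronal differentiation, followed at 149.9 and 133 TPM, at percentile 90.6. Together they made up most of the target sum of 516 and 487 TPM: Hes5 took 48.3% and 47.6%, and Hes6 29.1% and 27.3%. The target group is set by the gene list, and whether each gene in it responds to Notch in this tissue was not tested. The sum is therefore not a measure of Notch activity. Hes5 exceeded Hes6 by 1.70-fold (log2 0.77 ± 0.05) and Hes1 by 6.18-fold (2.63 ± 0.23).

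Hey1, Hes1 and the feedback inhibitor Nrarp formed a middle tier. Hey1 had 40.3 TPM in replicate 1 and 37.7 in replicate 2, Hes1 had 36.0 and 41.9, and Nrarp had 31.3 and 34.4. Hes1 was not apart from Hey1 (log2 ratio -0.01 ± 0.22) or from Nrarp, and the order of Hes1 and Hey1 differed between the libraries. Heyl, at 5.64 and 5.61 TPM, and Hey2, at 1.37 and 1.49, lay well below their relative: Hey1 exceeded Heyl by 6.83-fold (2.77 ± 0.06) and Hey2 by 25.6-fold (4.68 ± 0.15). Dtx1, a ubiquitin ligase gene, was not apart from Hey2, and Nrarp exceeded it by 28.0-fold (4.81 ± 0.46).

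Hes3 and Hes7 were near the limit of the measurement. Hes3, known from the early neuroepithelium and the midbrain-hindbrain boundary, had 0.67 and 0.32 TPM in replicates 1 and 2, from 32 and 14 counts (95% Poisson intervals 21.9 to 45.2 and 7.65 to 23.5, counting error only). Hes7, an oscillator of the presomitic mesoderm, had 0.15 and 0.14 TPM from 7 and 6 counts (intervals 2.81 to 14.4 and 2.20 to 13.1). Of 8 markers of presomitic mesoderm and somites, 1 was detected (Tcf15, 3.49 and 3.41 TPM), their summed levels were 5.70 and 5.90 TPM, and Msgn1 and Cdx2 had no count. Hes5 exceeded Hes3 by 423-fold (log2 8.72 ± 0.54) and Hes1 exceeded Hes7 by 159-fold (7.31 ± 0.20), on the scale of log2(TPM + 0.1). Against such low genes the size depends on the pseudocount: with 1 in place of 0.1 the log2 ratios were 7.35 and 5.12.

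Across the 26 gene pairs that were compared within a library, 24 ratios exceeded their SD, and the first gene was the higher in both libraries in 19. None of these 26 orders turned on CPM in place of TPM, although sizes moved: the log2 ratio of Aph1a to Psenen was -0.47 on CPM.

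**Figure D2:**
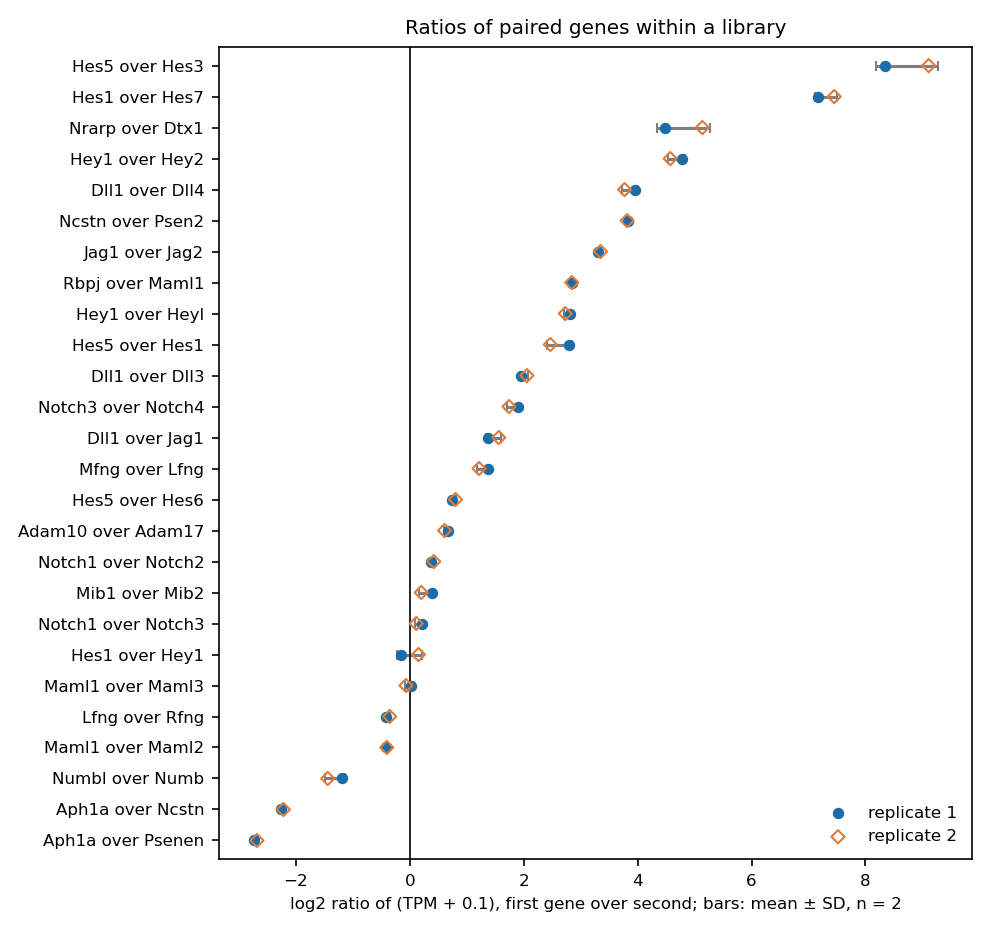
Log2 ratio of the first gene over the second within each library, with replicate 1 as filled circles, replicate 2 as open diamonds and bars for the mean ± SD (n = 2). Hes1 over Hey1 and Maml1 over Maml3 straddle 0, and Hes5 over Hes3 (8.72) is the largest ratio shown.

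The promoters of the targets were read for the words that RBPJ and Hes proteins are known to bind. RefSeq windows on GRCm38.p6, from 250 bases before to 50 after a start, matched 31 of the 37 genes with 40 windows; Mib1, Mfng, Hey1, Hes1, Heyl and Hes3 were not among them. GTGGGAA, searched on both strands, occurred in 6 member windows (15%), those of Hes5, Hey2, Hes7, Lfng, Psen2 and Aph1a, against 6.38% of all 32851 windows. The shorter word TGGGAA, which every GTGGGAA contains, occurred in 27.5% of member windows and 25.6% of all windows. The palindrome CACGTG, counted once, occurred in 10% and 7.15%, and CACNAG in 37.5% and 42.5%. GTGGGAA stood on both strands in only 0.1% of all windows, and among the members in those of Hes5 and Hey2. The 4 windows of targets and of the Fringe gene Lfng that hold GTGGGAA are shown 5′ to 3′ on the gene's strand, with GTGGGAA or its reverse complement in capitals. Hes5 is on the plus strand at chr4:154960673-154960972, Hey2 on the minus strand at chr10:30842734-30843033, Hes7 on the plus strand at chr11:69120203-69120502 and Lfng on the plus strand at chr5:140607091-140607390.
Hes5 promoter: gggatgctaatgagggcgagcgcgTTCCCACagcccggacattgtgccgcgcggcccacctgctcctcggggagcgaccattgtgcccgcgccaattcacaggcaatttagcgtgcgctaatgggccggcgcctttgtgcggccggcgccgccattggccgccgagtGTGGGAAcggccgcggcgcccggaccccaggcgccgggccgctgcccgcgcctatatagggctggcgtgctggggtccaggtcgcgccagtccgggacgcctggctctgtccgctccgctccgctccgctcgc
Hey2 promoter: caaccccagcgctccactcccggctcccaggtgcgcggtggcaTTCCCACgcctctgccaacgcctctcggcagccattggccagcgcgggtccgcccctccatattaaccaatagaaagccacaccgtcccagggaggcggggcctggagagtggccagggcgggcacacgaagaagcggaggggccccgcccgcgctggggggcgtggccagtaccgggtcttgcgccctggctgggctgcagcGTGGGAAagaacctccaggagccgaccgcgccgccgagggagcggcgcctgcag
Hes7 promoter: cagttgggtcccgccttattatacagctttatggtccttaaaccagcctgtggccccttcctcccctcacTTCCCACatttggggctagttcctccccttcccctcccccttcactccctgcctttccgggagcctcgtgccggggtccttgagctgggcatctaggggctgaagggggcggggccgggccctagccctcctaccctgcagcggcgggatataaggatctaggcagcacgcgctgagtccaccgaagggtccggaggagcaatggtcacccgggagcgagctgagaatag
Lfng promoter: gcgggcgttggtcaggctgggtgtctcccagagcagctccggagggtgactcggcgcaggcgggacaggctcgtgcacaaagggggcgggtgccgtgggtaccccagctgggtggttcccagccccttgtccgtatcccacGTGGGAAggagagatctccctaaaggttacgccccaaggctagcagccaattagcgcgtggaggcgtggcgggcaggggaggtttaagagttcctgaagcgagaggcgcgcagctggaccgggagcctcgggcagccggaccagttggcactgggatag
In the Hes5 window the matches lie at -226 to -220 on the minus strand and at -83 to -77 on the plus strand, counted from the start. In the Hey2 window they lie at -207 to -201 on the minus strand and at -4 to 3 on the plus strand. The genes with these windows ranged from the highest level of the set (Hes5, 240.6 ± 12.3 TPM) to levels near or under the detection limit (Hey2, 1.43 ± 0.0849 TPM, and Hes7, 0.145 ± 0.00707 TPM), so windows with the same word belonged to genes at opposite ends of the range. A match is a description of the letters and not evidence of binding.

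Transcript tables gave the share of each gene's TPM in its annotated transcripts. Of the 34 detected genes 27 had several transcripts, and in 26 of them the same transcript led in both libraries; over 9073 detected coding genes with several transcripts, the leading transcript differed in 8.05%. The exception was Pofut1, where the coding Pofut1-201 (46.5% and 48.6% in replicates 1 and 2) and the retained-intron Pofut1-205 (46.6% and 45.0%) had nearly equal shares. The median share of TPM in transcripts annotated as protein-coding was 90.8% and 93.1% for the Notch genes in replicates 1 and 2, against 91.7% in each for all such genes. In 5 Notch genes (18.5%) under 75% of TPM lay in coding transcripts in both libraries, against 25.6% of all such genes. These were Notch4, Numb, Pofut1, Mib2 and Rfng.

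**Figure D3:**
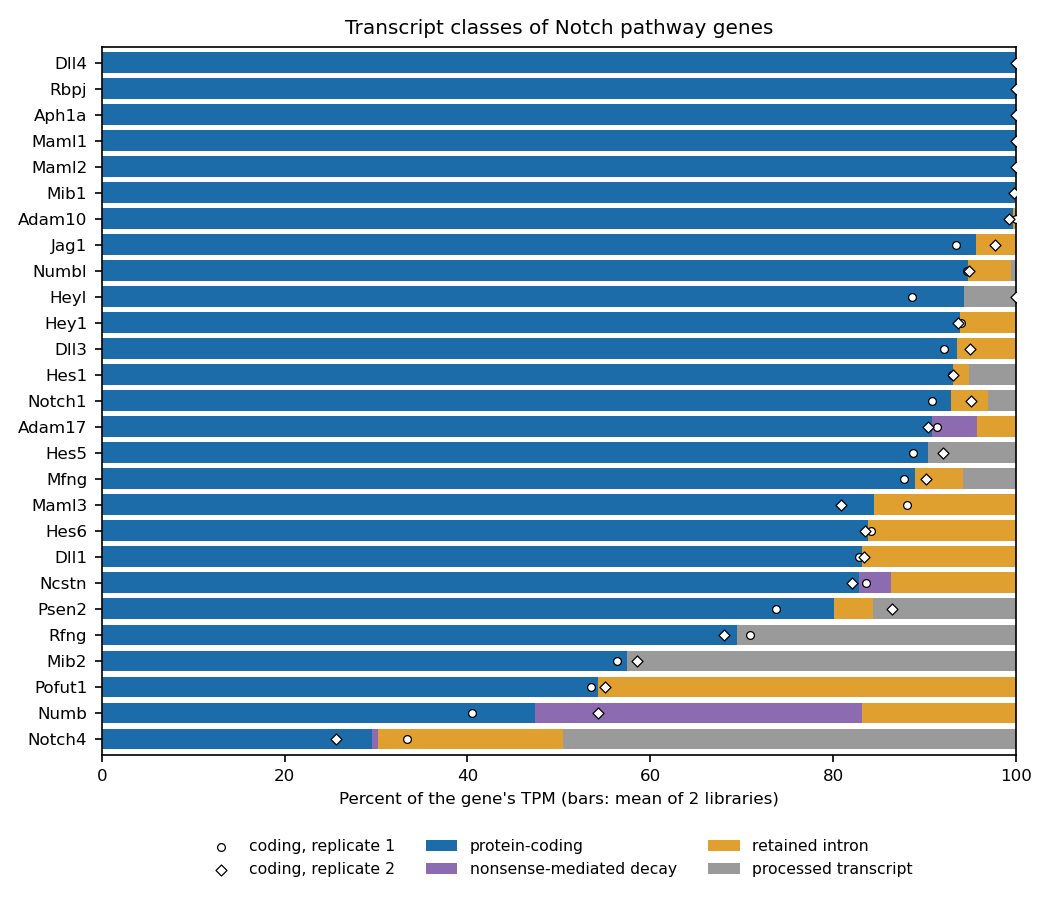
Percent of TPM by annotated transcript class for the 27 detected genes with several transcripts, as stacked bars of the mean of 2 libraries, with the coding share of replicate 1 as circles and of replicate 2 as diamonds. Among the 27 detected genes shown, Notch4 (33.4% and 25.6%) and Numb (40.5% and 54.3%) had the lowest mean coding shares.

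Notch4 showed how far a gene level can depend on short transcripts. Its full-length coding transcript, Notch4-201 of 6591 bases, held 311 of 358 counts in replicate 1 and 247 of 299 in replicate 2, but only 1.73 and 1.52 TPM of the gene totals of 5.17 and 5.93 TPM. Notch4-210, a processed transcript of 619 bases, held 30.2 and 36.8 counts and 40.6% and 47.9% of TPM. On coding transcripts Notch4 averaged 1.63 ± 0.148 TPM, and the log2 ratio of Notch3 to Notch4 was 3.53 in place of 1.82. The direction between pools also depended on the unit: the log2 ratio of replicate 1 over replicate 2 was 0.12 in counts (95% counting interval -0.10 to 0.35) and -0.20 in TPM.

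Coding shares lowered other members less. Mib2 averaged 8.59 ± 0.771 TPM on coding transcripts, in place of 14.9 ± 0.955, with 43.6% and 41.5% of its TPM in processed transcripts in replicates 1 and 2. Dll1 averaged 38.6 ± 1.89 TPM on coding transcripts and still led the ligands, with Dll1-204, a retained-intron transcript, at 14.1% and 12.9%. Hes6 averaged 119 ± 10.6 and Hes5 217 ± 5.64 TPM, and both kept their places. For Mib1 the leading coding transcript was Mib1-204 of 2721 bases, at 61.7% and 65.4% of TPM, ahead of Mib1-201 of 10231 bases, at 36.3% and 33.03%, although Mib1-201 held more counts (1891 and 1497, against 832 and 767).

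Numb (chr12:83794034-83921934, minus strand, GRCm38) is known to be spliced into forms that differ by a short insert in its phosphotyrosine-binding domain and by a longer insert in its proline-rich region, and forms with the longer insert are known from dividing progenitors. The exons of 33 and 147 bases in the annotation are the alternative ones measured here, at chr12:83825259-83825291 and chr12:83797197-83797343 on the minus strand of GRCm38. They are shown 5′ to 3′ on the strand of the gene, with the exon in capitals and, in lower case, 20 bases of the spliced neighbouring exon on each side.
Numb exon of 33 bases: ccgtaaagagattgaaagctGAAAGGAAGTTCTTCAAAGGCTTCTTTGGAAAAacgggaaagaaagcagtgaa
Numb exon of 147 bases: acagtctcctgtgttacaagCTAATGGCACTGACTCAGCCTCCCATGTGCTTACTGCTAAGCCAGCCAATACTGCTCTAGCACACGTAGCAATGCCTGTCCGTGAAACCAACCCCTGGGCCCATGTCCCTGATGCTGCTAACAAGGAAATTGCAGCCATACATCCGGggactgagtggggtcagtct
Of 11 Numb transcripts 5 carried its TPM, and the other 6 were listed at 0. Numb-204, coding and without either exon, led at 32.1% in replicate 1 and 36.0% in replicate 2. Numb-203, with the 147-base exon, had 25.3% and 24.9%, and Numb-202, with both exons, 11.4% and 9.90%; GENCODE M21 classes both as targets of nonsense-mediated decay. Numb-208, a coding fragment of 644 bases with the 33-base exon, had 8.45% and 18.3%, and Numb-205, a retained-intron transcript of 441 bases, 22.7% and 10.9%. These short transcripts were the ones whose shares differed most between the libraries.

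Among Numb transcripts that span the flanking exons, those with the 147-base exon made up 53.4% of TPM in replicate 1 and 49.1% in replicate 2 (51.3% ± 3.01), and 50.5% ± 3.01 of counts. Transcripts with and without it thus had near-equal shares. Those with it were Numb-203 and Numb-202, both classed as targets of nonsense-mediated decay. The coding transcripts with it, Numb-207 and Numb-210, were listed at 0 in both libraries. Transcripts with the 33-base exon made up 38.2% and 43.9% of TPM (41.1% ± 4.00) but 26.9% ± 1.54 of counts, the difference following from the short Numb-208. Numb on coding transcripts alone was 12.3 TPM in replicate 1 and 17.2 in replicate 2, against 12.5 and 11.0 TPM for Numbl. The genes were thus near each other in replicate 1 only, and their order differed between the libraries. Of the coding Numb level, 2.56 and 5.8 TPM came from the fragment Numb-208, on 38.6 and 78.8 counts.

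The pools were close for nearly every Notch gene. Of the 35 genes whose mean count reached 50, 0 differed past 2-fold between replicate 1 and replicate 2, against 0.585% of 13842 genes in the same set. The median absolute log2 ratio was 0.10 for the Notch genes and 0.08 for all genes. The 95% counting interval of the ratio left out 0 for 18 Notch genes, 10 higher and 8 lower in replicate 1, or 51.4%, against 34.4% of all genes. These intervals cover counting error only and are narrower for genes with more counts.

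Genes higher in replicate 1 included Hes6, Mfng, Numbl and Rfng, with log2 ratios of 0.19 (0.13 to 0.25), 0.21 (0.13 to 0.28), 0.21 (0.08 to 0.34) and 0.14 (0.05 to 0.23). Genes lower in replicate 1 included Hes1 at -0.21 (-0.32 to -0.10), Dll4 at -0.27 (-0.50 to -0.03), Adam17 at -0.14 (-0.20 to -0.07) and Nrarp at -0.12 (-0.21 to -0.03). Hes5 differed by 0.08 (0.03 to 0.13) and Notch1 by 0.02 (-0.03 to 0.08). Dtx1 had the largest ratio, 0.71 (0.28 to 1.15), from 126 and 70 counts.

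Markers of other cells differed between the same pools. All 8 neuron markers were detected and all 8 were higher in replicate 1, with summed levels of 488 and 379 TPM in replicates 1 and 2 and a median log2 ratio of 0.39 (range 0.19 to 0.91). The proneural genes Neurog1 and Neurog2 were also higher, at 0.46 (0.29 to 0.64) and 0.47 (0.35 to 0.59). The 6 erythroid markers summed to 17362 and 12858 TPM, with a median log2 ratio of 0.41. The endothelial markers had a median log2 ratio of -0.06, beside -0.27 for Dll4. The part of neurons, blood and vessels in the ratios of the Notch genes was not tested.

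**Figure D4:**
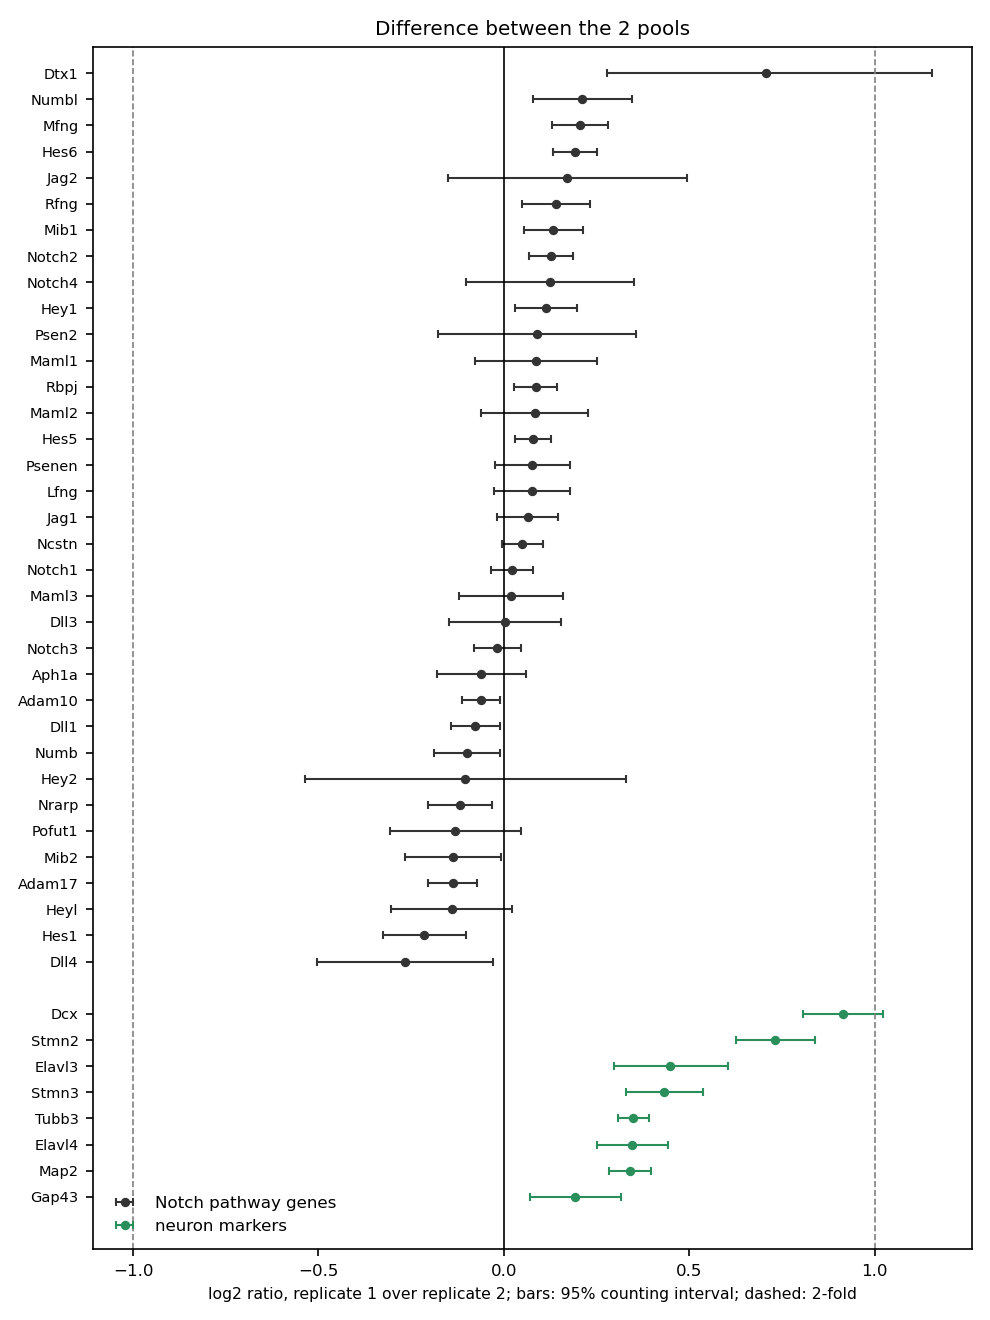
Log2 ratio of replicate 1 over replicate 2 for the 35 Notch pathway genes whose mean count reached 50 (black) and 8 neuron markers (green), with 95% counting intervals; dashed lines mark 2-fold. The neuron markers all lie right of 0 (0.19 to 0.91), and the Notch genes lie on both sides of it.

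Of 38 other genes of the pathway, 35 were detected; their median was 15.3 TPM in replicate 1 and 14.1 in replicate 2. The highest were genes of the corepressors that RBPJ and Hes proteins recruit: Ctbp1 at 313 ± 5.30 TPM, Hdac2 at 265 ± 5.20 and Hdac1 at 261 ± 17.2, with Ncor1 at 108 ± 2.05, Tle3 at 37.7 ± 1.57 and Tle1 at 33.7 ± 0.156. Dlk1, a non-canonical ligand gene, had 169 TPM in replicate 1 and 235 in replicate 2 (log2 ratio -0.48, -0.53 to -0.43). Dner, a neuronal ligand-like gene, had 6.26 ± 1.10 TPM. Poglut1, which adds O-glucose to Notch, averaged 60.4 ± 1.82 TPM, against 5.23 ± 0.311 for Pofut1, and Furin, the protease of receptor maturation, 3.08 ± 0.346 TPM. Of the Deltex family, Dtx3, Dtx2 and Dtx4 averaged 90.8 ± 1.39, 30.6 ± 2.81 and 25.8 ± 1.56 TPM, all above Dtx1. The proneural genes Neurog2 and Neurog1, which Hes proteins repress, averaged 20.5 ± 4.54 and 13.8 ± 2.998 TPM. The 3 genes not detected were Hes2, with no count, Neurl1b and Aph1c, whose reads are shared with its close copy Aph1b.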

How the data were processed

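Total RNA was isolated with mirVana from pooled forebrains and spike-ins were added, per the labels' protocols. Deposited notes give the assembly mm10 and annotation M4; aligner, quantification tool, versions and strandedness: not given in the sources used here. Per library, the authors deposited expected counts (estimated reads, not normalized), TPM over all 69691 rows, a posterior mean TPM with interval bounds whose level is not stated, and, for each transcript, its percent of the gene's TPM, per the file headers. The 26345 rows that are not annotated genes held 3.45% and 3.07% of counts in replicates 1 and 2 and were left out of ratios.

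The named genes are all 37 members, and listed pathway genes or cell markers where a count or range is given; members and lists were chosen with earlier results of these data known. Some listed genes are counted but not reported by name here. Symbols, coordinates and transcript classes came from GENCODE M21 on GRCm38; of 156 member transcripts 1 was absent from it and 12 had another length. Pair ratios used log2(TPM + 0.1). Ratios between libraries used expected counts plus 0.5 over totals scaled by TMM factors (edgeR 4.0.16 in R 4.3.3, on rounded expected counts with 10 or more in each library), with exact 95% binomial intervals. The ratio and the interval were tested on simulated counts, without the TMM scaling. DESeq2 1.42.0 gave alternative size factors. Python 3.11.15, numpy 2.4.6, pandas 2.3.3, scipy 1.17.1 and matplotlib 3.10.9 did the rest. Alternatives were other limits, pseudocounts, units, filters and scalings, each library alone and, chosen after seeing the data, coding transcripts only.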

Additional observations from a re-analysis of the deposited data

How the results depend on the processing

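The count of detected Notch genes was 34, and 29 to 35 under the limits of 5 and 0.5 TPM, the posterior mean TPM, annotated genes only, coding transcripts only and each library alone (34 to 35). With TPM over annotated genes only, the median member level was 18.5 in place of 17.1 TPM, since every share grows; with each library alone it was 16.7 to 17.5. The median log2 level of all members was 4.11, and 4.18 with a pseudocount of 1, 4.26 with detected members only and 4.07 to 4.14 with each library alone. Of the pairs, 19 had the first gene higher in both libraries with the other pseudocounts, CPM and the posterior mean, and 20 in each library alone. On coding transcripts only, Lfng over Rfng was 0.13, reversed from -0.39, and 16 other pairs moved by more than their SD. With a mean count of 10 or more, or with no filter, 1 member (Hes3) passed 2-fold between the pools in place of 0. DESeq2 size factors and library totals left that count at 0. Numb-204 held 46.9% of Numb's expected counts, against 34.1% of its TPM (32.1% to 36.0% in each library alone), because counts are not divided by length. No paired analysis was possible because both libraries belong to 1 group. Leading transcripts could not be compared with 1 library left out. Depth limits Hes3, Hes7 and the shares of short transcripts, which rest on few counts.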
